A study of Homo sapiens with 9 samples.

Results

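Tissue factor, protease inhibitors, endothelial-type receptors of the protein C pathway, plasminogen activators and a plasminogen activator receptor make up a set of 9 genes. They were measured in adipose-derived stem cells (ASCs) after 10 days of differentiation towards keratinocyte-like cells. The genes are F3, TFPI, TFPI2, THBD, PROCR, PLAT, PLAU, PLAUR and SERPINE2, out of 17687 genes that carried a symbol. They were selected by symbol, with earlier results of the same arrays known, which included the values of F3 and TFPI2 with and without the inhibitor. Where a symbol had several probe sets, the brightest on average was to be used, but each of the 9 genes had 1 probe set among the 21448 on the array. Since the set was proposed with results in view, the calls of its members describe these arrays and are no independent support for any of them.

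All cells were of the line ASC52telo, a single adipose-derived mesenchymal line immortalized with telomerase, grown on rat tail collagen type I in differentiation media (DM) with BMP-4, EGF, ascorbic acid 2-phosphate, hydrocortisone and all-trans retinoic acid. The DM group received the media alone, the DMSO group received DM with 0.1% DMSO as the vehicle, and the CID group received DM with 40 μM CID-1067700, a competitive inhibitor of Rab7, which is a GTPase of late endosomes. The share of DMSO in the CID wells is not given in the sources used here. RNA was taken on day 10, with 3 Clariom S Human arrays per group. The groups therefore share the line, the media and its hydrocortisone and retinoic acid, and undifferentiated ASCs were not on the arrays analysed here.

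Coagulation outside the vessel starts when tissue factor, a membrane protein of stromal and epithelial cells, binds factor VIIa and activates factors IX and X. TFPI shuts this complex down, and thrombomodulin and the endothelial protein C receptor turn thrombin towards activating protein C. Clots and matrix are later dissolved by plasmin, which tPA and uPA release from plasminogen and which serpins and TFPI2 hold back. Fibroblasts and keratinocytes use the same parts during wound repair, with uPA held at the cell surface by its receptor.

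The arrays had median log2 values of 7.06 to 7.14, and arrays of 1 group correlated at 0.994 to 0.995 (Pearson's r across probe sets, which are not independent of each other). Values are log2 RMA values, so that a difference of 1 is a 2-fold difference, and levels of different genes cannot be set against each other because their probes differ. A gene was called when its adjusted p was under 0.05 (limma over all 21448 probe sets, Benjamini-Hochberg) and its linear fold change was at least 1.5. All 9 mesenchymal markers (THY1, NT5E, ENG, PDGFRB, PDGFRA, CD44, LUM, DCN and VIM) lay above a mean log2 value of 5.40, below which the dimmest 1 in 3 probe sets lie, and all 11 keratinocyte markers, KRT5, KRT14 and FLG among them, lay below it. The mean of the mesenchymal markers was 14.74 to 14.86 in DM arrays, 14.90 to 14.96 in DMSO arrays and 14.52 to 14.56 in CID arrays, and PDGFRA was called lower with CID against DM (log2 fold change -0.65, adjusted p = 0.0338 from limma) and, with PDGFRB, LUM and DCN, against DMSO. These were 1 of 9 markers against DM and 4 of 9 against DMSO, beside 0.970% and 1.74% of all probe sets called lower. Of the 9 log2 fold changes 7 were negative and 2 positive in each CID comparison, and THY1, at 12.90 to 12.92 in the CID arrays, lay above every other array without being called (0.39 against DM, adjusted p = 0.416, and 0.45 against DMSO, adjusted p = 0.271). CID arrays lay above all arrays of the other group in 8.68% of all probe sets against DM and in 10.6% against DMSO. In the keratinocyte list 0 of 11 were called in either CID comparison, and at an unadjusted p under 0.05 in limma, which 12.6% of all probe sets had against DM and 15.2% against DMSO, 0 stood against DM and 2 against DMSO, 1 higher and 1 lower. Whether the differences of the mesenchymal markers bear on the coagulation genes was not tested, and fewer cells of a type and less RNA per cell cannot be told apart on such arrays. The labels call the 3 samples of a group biological replicates without naming separate cultures. The p-values set group differences against the spread between these samples only, and that spread could be technical.

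The 2 members that were called against DM, F3 and TFPI2, are shown here by the 250 bases before their RefSeq start (GRCh38.p14), because motifs of factors known at the F3 promoter lie there. Both are written on the strand of the gene, which is the minus strand of the chromosome, from chr1:94541760-94542009 for F3 and from chr7:93890754-93891003 for TFPI2. Capitals mark matches, on either strand, to TGANTCA (AP-1), GGNNTTTCC (NF-kB type) and GCGNGGGCG (EGR1).
F3: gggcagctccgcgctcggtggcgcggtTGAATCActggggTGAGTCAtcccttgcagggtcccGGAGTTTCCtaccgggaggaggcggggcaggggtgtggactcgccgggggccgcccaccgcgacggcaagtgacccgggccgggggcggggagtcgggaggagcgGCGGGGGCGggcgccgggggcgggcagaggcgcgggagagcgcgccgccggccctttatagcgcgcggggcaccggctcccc
TFPI2: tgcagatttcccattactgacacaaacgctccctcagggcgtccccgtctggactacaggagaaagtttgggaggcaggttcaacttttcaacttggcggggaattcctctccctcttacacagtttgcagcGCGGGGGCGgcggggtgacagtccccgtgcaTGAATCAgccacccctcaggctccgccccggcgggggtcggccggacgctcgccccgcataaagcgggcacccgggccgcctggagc

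The F3 promoter held 2 matches to the AP-1 motif, starting 223 and 210 bases before the start, 1 match to the NF-kB motif at 187 and 1 to the EGR1 motif at 82. The TFPI2 promoter held 1 AP-1 match at 87 and 1 EGR1 match at 118. NF-kB sites of forms other than GGNNTTTCC were not searched for, so that the 2 promoters cannot be told apart by NF-kB sites in general. Of 35116 RefSeq promoter windows of this length, 6.57% held the AP-1 motif, 5.48% the NF-kB motif and 8.41% the EGR1 motif. Matches to GGGCGG (SP1), of which 1 in each promoter overlapped the EGR1 match, numbered 4 in F3 and 2 in TFPI2, against 42.6% of windows with any. Sequences were found for 7 of the 9 members in 9 windows, and of the other 5 matched members only PLAUR held the AP-1 motif and the EGR1 motif, with 1 of each. A match is a description of the letters, not of binding.

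F3, which encodes tissue factor, was higher with CID than in both other groups. Its log2 values were 10.00, 10.26 and 10.13 in the DM arrays, 10.21, 9.98 and 9.69 in the DMSO arrays and 11.18, 11.41 and 11.17 in the CID arrays. Every CID array lay above every other array, and DM and DMSO overlapped. F3 rose 2.18-fold with CID against DM (log2 fold change 1.12 ± 0.15 SE, limma adjusted p = 0.00568) and 2.45-fold against DMSO (log2 fold change 1.29 ± 0.15 SE, limma adjusted p = 0.00174). Both comparisons use the same CID arrays. By size, F3 ranked 14 among the 81 probe sets called higher against DM and 11 among the 143 called higher against DMSO. For DMSO against DM its log2 fold change was -0.17, with a 95% interval of -0.50 to 0.16 and an adjusted p of 0.864 from limma. When 1 array of the groups compared was removed, F3 was still called in each of 6 fits against DM (highest adjusted p = 0.0304) and of 6 against DMSO (highest adjusted p = 0.0103). In an independent samples t-test, which the study's methods name for its statistics but not for the arrays, adjusted over all probe sets, F3 was not called (adjusted p = 0.129 against DM and 0.112 against DMSO).

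**Figure D1:**
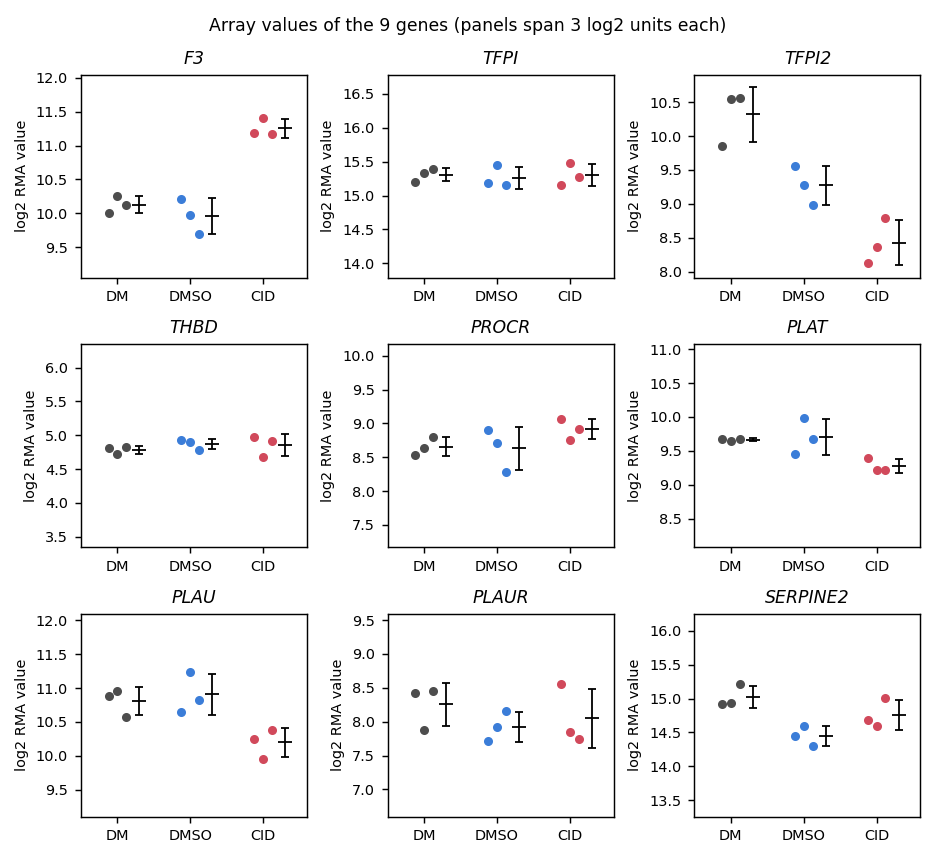
Log2 RMA values (y axis) of the 9 genes in the DM, DMSO and CID groups (x axis), with 1 point per array and the mean ± SD of 3 arrays beside it. Every panel spans the same 3 log2 units. F3 stands at 11.17 to 11.41 in CID arrays against 9.69 to 10.26 in the others, and TFPI2 forms 3 separate levels.

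TFPI2, a Kunitz-type inhibitor of plasmin and other serine proteases that cells lay down in the matrix, formed 3 levels that did not overlap. Its log2 values were 9.85, 10.55 and 10.56 with DM, 9.56, 9.28 and 8.98 with DMSO and 8.13, 8.36 and 8.79 with CID. The DM arrays were the highest, the DMSO arrays lay between, and the CID arrays were the lowest. TFPI2 fell 3.71-fold with CID against DM (log2 fold change -1.89 ± 0.23 SE, limma adjusted p = 0.00345) and ranked 16 by size among 208 probe sets called lower. Against DMSO the log2 fold change was -0.85 (SE 0.23, 95% interval -1.36 to -0.33), and it was not called (adjusted p = 0.0920 from limma). The vehicle group itself stood at -1.05 against DM (SE 0.23, 95% interval -1.56 to -0.53, adjusted p = 0.472 from limma), although the unadjusted p of that difference was 9.73e-04. Both steps, from DM to DMSO and from DMSO to CID, rest on the same DMSO arrays, and whether their sizes differ was not tested. The call against DM was kept in all 6 fits without 1 array (highest adjusted p = 0.0202), and the adjusted p against DMSO was 0.0839 to 0.264 in such fits. With a trended and robust variance prior TFPI2 was called against DMSO too (adjusted p = 0.0291), and in the independent samples t-test it was not called against DM (adjusted p = 0.213).

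TFPI, the main inhibitor of the complex of tissue factor and factor VIIa, was not called in any comparison. Its log2 values were 15.20, 15.33 and 15.39 with DM, 15.18, 15.45 and 15.15 with DMSO and 15.16, 15.48 and 15.27 with CID, and all 3 groups overlapped. For CID against DM the difference was -0.0033 on the log2 scale, with a 95% interval of -0.30 to 0.29 (adjusted p = 0.995 from limma). Against DMSO it was 0.04, with an interval of -0.25 to 0.34.

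Of the 9 members, 1 was called higher and 1 lower with CID against DM, where 1.35% of all probe sets were called, 0.378% higher and 0.970% lower. Against DMSO 1 was called higher and 0 lower, where 2.41% of all probe sets were called, 0.667% higher and 1.74% lower. With DMSO against DM 0 of 9 were called, where 0.00466% of all probe sets were called. At an unadjusted p under 0.05 in limma, 2 members were lower there, TFPI2 and SERPINE2, as were 4.04% of all probe sets. The median log2 fold change of the members was -0.20 for CID against DM, 0.04 for CID against DMSO and -0.05 for DMSO against DM, beside 0.0067, 0.017 and 0 over all probe sets. Beside F3 and TFPI2, 7 members were not called against DM.

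**Figure D2:**
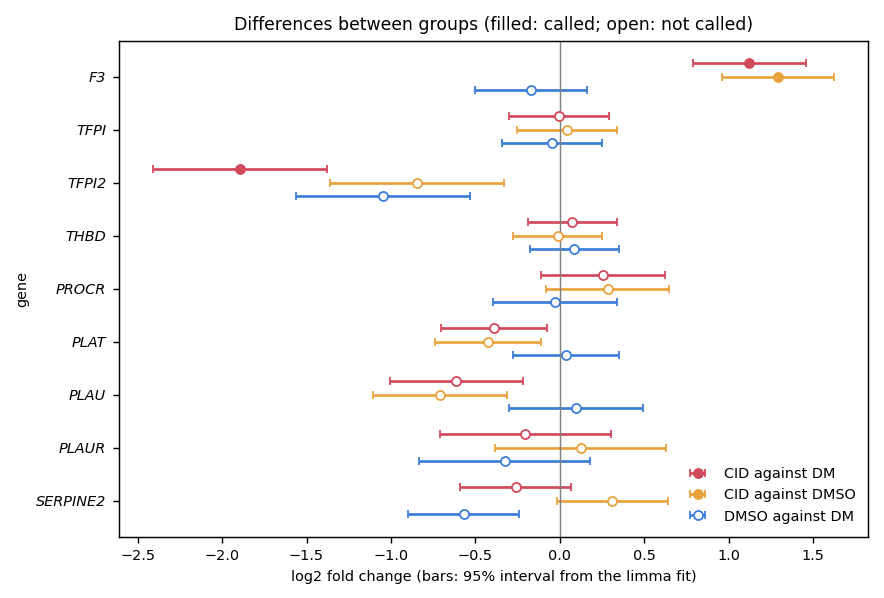
Log2 fold changes (x axis) of the 9 genes (y axis) in the 3 comparisons, with bars for the 95% interval of the limma fit and filled points for called genes. F3 is filled at 1.12 and 1.29 for both CID comparisons, whereas TFPI2 is filled only against DM at -1.89, and its DMSO against DM point lies at -1.05.

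PLAU and PLAT, the genes of the plasminogen activators uPA and tPA, had lower values in every CID array than in any other array, without being called. PLAU had log2 values of 10.89, 10.96 and 10.58 with DM, 10.65, 11.24 and 10.83 with DMSO and 10.25, 9.96 and 10.38 with CID. Its log2 fold change was -0.61 against DM (95% interval -1.01 to -0.22, adjusted p = 0.148 from limma) and -0.71 against DMSO (95% interval -1.10 to -0.32, adjusted p = 0.0670 from limma), with 0.10 for DMSO against DM. PLAU passed the threshold with a trended and robust variance prior in both CID comparisons (adjusted p = 0.0458 and 0.0145), and against DMSO also without the dimmest probe sets (0.0381) and after median centring (0.0494).
PLAT had log2 values of 9.68, 9.64 and 9.67 with DM, 9.45, 9.98 and 9.67 with DMSO and 9.39, 9.21 and 9.22 with CID. Its DM arrays lay close together (SD 0.021), and its DMSO arrays spread more widely (SD 0.266). The log2 fold change of PLAT was -0.39 against DM (95% interval -0.70 to -0.08, adjusted p = 0.266 from limma) and -0.43 against DMSO (95% interval -0.74 to -0.11, adjusted p = 0.168 from limma), below the fold threshold in both. Including TFPI2, 3 members had all CID arrays below all arrays of the group compared, in each of the CID comparisons. Such separation was found in 9.22% of all probe sets against DM and 10.7% against DMSO for lower values, and in 8.68% and 10.6% for higher values, as F3 had.

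PLAUR, the receptor that holds uPA at the cell surface, and SERPINE2, which encodes protease nexin 1, an inhibitor of thrombin, uPA and tPA, were not called. PLAUR had log2 values of 8.43, 7.88 and 8.45 with DM, 7.71, 7.92 and 8.15 with DMSO and 8.55, 7.85 and 7.75 with CID. Its groups overlapped, and CID 1 was the highest of all 9 arrays. The log2 fold change was -0.20 against DM (95% interval -0.71 to 0.30) and 0.12 against DMSO (95% interval -0.38 to 0.63), and without CID 1 the latter was -0.13.
SERPINE2 had log2 values of 14.92, 14.93 and 15.21 with DM, 14.45, 14.60 and 14.30 with DMSO and 14.68, 14.59 and 15.01 with CID. All DMSO arrays lay below all DM arrays, as did those of TFPI2, and such lower values without overlap were found in 6.25% of all probe sets. The log2 fold change of SERPINE2 was -0.57 for DMSO against DM (95% interval -0.90 to -0.24, adjusted p = 0.546 from limma), -0.26 for CID against DM (adjusted p = 0.513) and 0.31 for CID against DMSO (adjusted p = 0.362). Its CID values thus lay between those of the other groups, overlapping both.

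The receptors of the protein C pathway were not called. PROCR, the endothelial protein C receptor, had log2 values of 8.53, 8.64 and 8.80 with DM, 8.90, 8.71 and 8.28 with DMSO and 9.06, 8.76 and 8.92 with CID. Its log2 fold change was 0.26 against DM (95% interval -0.11 to 0.62, adjusted p = 0.573 from limma) and 0.28 against DMSO (95% interval -0.08 to 0.65, adjusted p = 0.470), and the groups overlapped. THBD, which encodes thrombomodulin, had log2 values of 4.81, 4.72 and 4.82 with DM, 4.93, 4.90 and 4.78 with DMSO and 4.98, 4.68 and 4.91 with CID. With a mean of 4.84 it was the member that lay among the dimmest 1 in 3 probe sets, and its log2 fold change was 0.07 against DM (95% interval -0.19 to 0.34) and -0.01 against DMSO (95% interval -0.28 to 0.25). Both receptors are best known from endothelial cells, of whose 7 markers 0 were called in limma. In each comparison 1 of them had an unadjusted p under 0.05 in limma. So had 12.6% of all probe sets for CID against DM, 15.2% for CID against DMSO and 6.98% for DMSO against DM. Of the 7 markers 4 lay above the dim limit. VWF, TEK, EMCN and CLDN5 were above it, with means over the 9 arrays of 7.81, 8.78, 6.65 and 5.46, and PECAM1, CDH5 and KDR were below it, at 4.83, 4.02 and 3.06. The mean of that list was 5.67 to 5.93 in DM, 5.69 to 5.89 in DMSO and 5.72 to 5.83 in CID arrays.

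**Figure D3:**
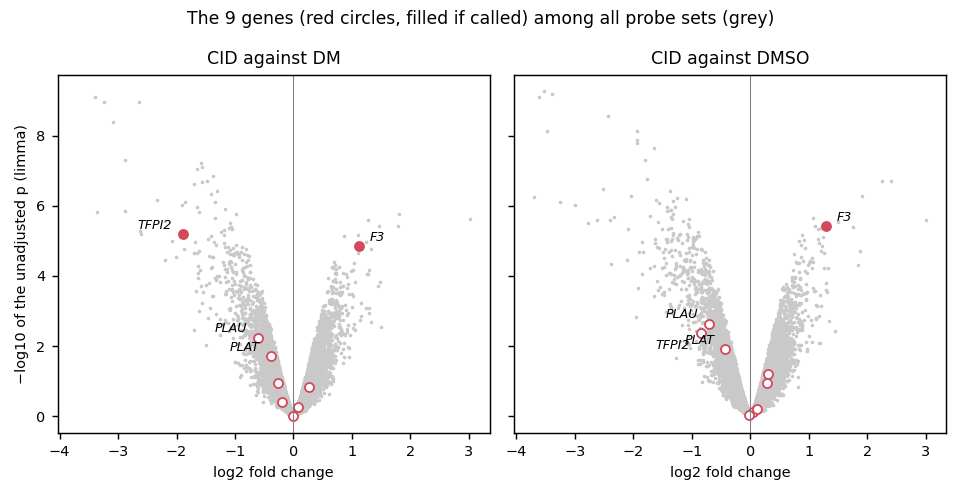
Unadjusted p as −log10 (y axis) against the log2 fold change (x axis) for all 21448 probe sets (grey) with the 9 genes as red circles, filled where called, for CID against DM (left) and CID against DMSO (right). F3 is filled on the right-hand side of both panels, and TFPI2 moves from -1.89 to -0.85 between them while PLAU stays near -0.61 and -0.71.

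The other genes of the pathway were taken from 7 lists of 82 genes, of which 78 were measured and 4 were not analysed here. Against DM, 1 of the 78 was called lower and 0 higher, with a median log2 fold change of 0.0083. Over all probe sets 0.970% were called lower and 0.378% higher there. Against DMSO 2 were called lower and 2 higher, with a median of -0.027, beside 1.74% and 0.667% of all probe sets. For DMSO against DM 0 were called, and 7 of 78 had an unadjusted p under 0.05 in limma, beside 6.98% of all probe sets.

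Among 5 genes that bind plasminogen, CLEC3B was called lower in both CID comparisons, and the other 4 had negative log2 fold changes without being called. Over all probe sets 0.970% were called lower against DM and 1.74% against DMSO. CLEC3B encodes tetranectin, which binds the kringle 4 part of plasminogen. Its log2 values were 9.75, 9.74 and 9.84 with DM, 9.87, 10.88 and 10.34 with DMSO and 7.0, 6.64 and 7.02 with CID, so that CID arrays stood far below the rest. CLEC3B fell 7.41-fold against DM (log2 fold change -2.89 ± 0.22 SE, limma adjusted p = 2.11e-04) and 11.1-fold against DMSO (log2 fold change -3.48 ± 0.22 SE, adjusted p = 2.63e-05). ANXA2 and S100A10, which together form a receptor for plasminogen and tPA, stood on the log2 scale at -0.53 (adjusted p = 0.0292 from limma) and -0.54 (adjusted p = 0.0431) against DMSO, under the fold threshold, and of -0.41 (adjusted p = 0.117) and -0.42 (adjusted p = 0.144) against DM. PLGRKT, a plasminogen receptor of the cell membrane, and ENO1, an enolase that also binds plasminogen, stood at -0.33 and -0.24 against DM. The median log2 fold change of these 5 was -0.41 against DM and -0.53 against DMSO, and CLEC3B had been known to fall when the list was written.

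Coagulation factors were not called in any of the 3 comparisons, 0 of 16, with log2 fold changes of -0.17 to 0.48 for CID against DM. In limma 1 of them had an unadjusted p under 0.05 there, beside 12.6% of all probe sets. Among 13 further anticoagulant genes and helpers of tissue factor, 1 was called, PROS1, and only against DMSO. There 1.74% of all probe sets were called lower. PROS1 encodes protein S, a cofactor of activated protein C and of TFPI. PROS1 had log2 values of 11.29, 10.74 and 11.32 with DM, 11.61, 11.34 and 11.58 with DMSO and 10.43, 10.74 and 10.47 with CID. It fell 1.95-fold against DMSO (log2 fold change -0.96 ± 0.17 SE, limma adjusted p = 0.0140) and had -0.57 against DM (adjusted p = 0.164). The call was lost without DMSO 1, DMSO 3, CID 1 or CID 3 (highest adjusted p = 0.0625), and without DM 2, whose value equals that of CID 2, PROS1 was called against DM as well (adjusted p = 0.0479).
ANO6, a scramblase that exposes phosphatidylserine, and P4HB, a disulfide isomerase linked to tissue factor activity, stood at 0.07 (adjusted p = 0.833) and -0.33 (adjusted p = 0.210) against DM in the same limma fit, on the log2 scale.

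Of 3 measured receptors that thrombin and other coagulation proteases cleave, 1 was called, and only against DMSO. There 0.667% of all probe sets were called higher. F2RL2, which encodes PAR3, had log2 values of 14.38, 13.96 and 14.24 with DM, 14.22, 13.91 and 14.15 with DMSO and 14.94, 14.55 and 14.88 with CID, so that each CID array lay above all others. Such higher values without overlap were found in 8.68% of all probe sets against DM and 10.6% against DMSO. The log2 fold change of F2RL2 was 0.70 against DMSO (SE 0.16, adjusted p = 0.0412 from limma) and 0.60 against DM (adjusted p = 0.103). Its call against DMSO was kept only in the fit without CID 2 and was lost without any 1 of DMSO 1, DMSO 2, DMSO 3, CID 1 and CID 3 (highest adjusted p = 0.146). F2R, which encodes PAR1, the main thrombin receptor of fibroblasts, had 0.05 against DM (adjusted p = 0.905) and -0.17 against DMSO (adjusted p = 0.592).
Of 7 other genes of plasminogen activation and fibrinolysis, among them PLG itself, 0 were called, with log2 fold changes of -0.11 to 0.49 against DM. In limma 1 of these 7 had an unadjusted p under 0.05 against DM, beside 12.6% of all probe sets. Of 17 uptake and partner receptors of proteases and their inhibitors, 0 were called in the CID comparisons, where 4 against DM and 3 against DMSO had an unadjusted p under 0.05 in limma, all lower, beside 6.90% and 7.96% of all probe sets that were lower at that p. LRP1, which clears complexes of uPA, tPA and TFPI, had a log2 fold change of 0.32 against DM (adjusted p = 0.485 from limma), and ITGA5, an integrin chain that works with the uPA receptor, had -0.72 (adjusted p = 0.101).

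**Figure D4:**
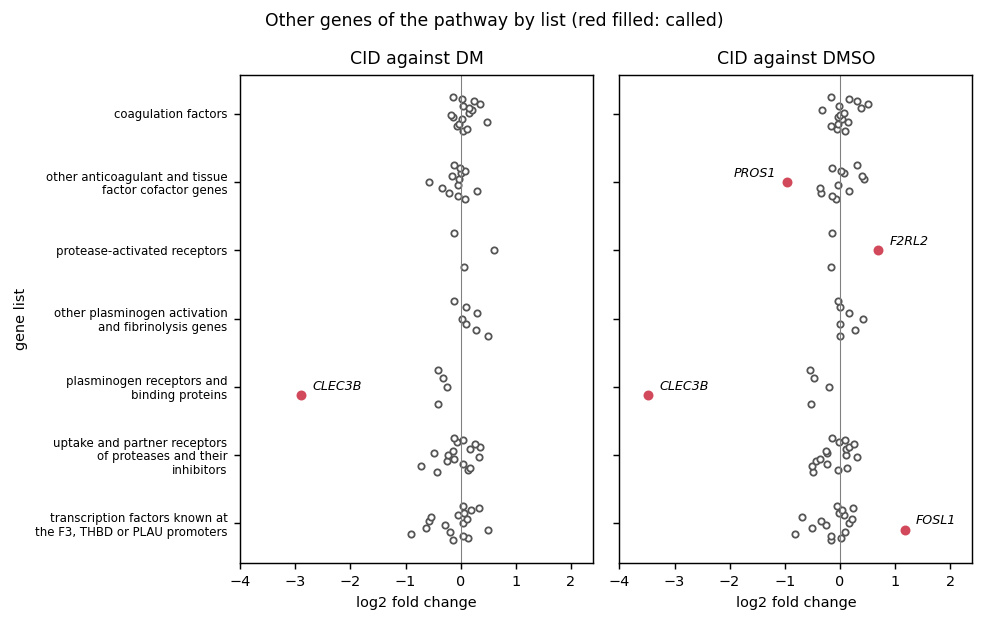
Log2 fold changes (x axis) of 78 further genes of the pathway, 1 point per gene and 1 row per list (y axis), for CID against DM (left) and CID against DMSO (right), with called genes filled in red. CLEC3B stands alone at -2.89 and -3.48, and PROS1, F2RL2 and FOSL1 are called only against DMSO.

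Of 17 transcription factors known at the promoters of F3, THBD or PLAU, 1 was called, FOSL1, and only against DMSO. There 0.667% of all probe sets were called higher and 1.74% lower. FOSL1 encodes FRA-1, a subunit of AP-1. Its log2 values were 11.88, 12.22 and 12.21 with DM, 11.48, 11.43 and 11.38 with DMSO and 12.49, 12.41 and 12.90 with CID, with no overlap between any 2 groups. Higher CID values without overlap were found in 8.68% of all probe sets against DM and 10.6% against DMSO. DMSO values lower than DM without overlap were found in 6.25%. FOSL1 rose 2.25-fold against DMSO (log2 fold change 1.17 ± 0.15 SE, limma adjusted p = 0.00279). This call was kept in all 6 fits without 1 array (highest limma adjusted p = 0.0169). FOSL1 had 0.50 against DM (adjusted p = 0.178) and stood at -0.67 for DMSO against DM (adjusted p = 0.499). Other AP-1 subunits were not called, with log2 fold changes against DM of -0.91 for FOS (adjusted p = 0.458), -0.63 for FOSL2 (adjusted p = 0.0912) and 0.04 for JUN (adjusted p = 0.925). EGR1, whose motif stands in both printed promoters, had -0.14 (adjusted p = 0.816), and NFKB1 and RELA, subunits of NF-kB, had 0.06 (adjusted p = 0.900) and 0.34 (adjusted p = 0.279). Whether any of these factors acted on F3 or TFPI2 was not tested.

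The profiles most like those of the 2 called members over the 9 arrays were found by the root mean square difference of log2 values centred on each gene's mean, among 2606 genes with a range of at least 1. For F3 they were DPP4, a cell surface peptidase, at 0.196, RGS10, a regulator of G protein signalling, at 0.204, and GRAMD4, at 0.204. These genes had log2 fold changes for CID against DM of 1.24, 0.78 and 1.02, and for DMSO against DM of 0.16, -0.20 and -0.25. For TFPI2 they were H2BC14, a histone H2B gene whose probes may not part it from its near-identical copies, at 0.313, CXCL6, a neutrophil-attracting chemokine, at 0.355, and MOK, a protein kinase, at 0.385. Their log2 fold changes for CID against DM were -1.46, -1.56 and -1.17, and for DMSO against DM -0.60, -0.49 and -0.46, smaller in size than the -1.05 of TFPI2. CXCL6 and MOK were called lower against DM, and H2BC14 was not called (adjusted p = 0.0761 from limma). All these genes were picked for like profiles, so that their like fold changes are no separate result.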

How the data were processed

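Total RNA of 9 samples was hybridized to Clariom S Human arrays, and the authors made 1 RMA value per probe set in Transcriptome Analysis Console. These deposited values are log2 values. RMA corrects the background, brings arrays to 1 distribution and sums up the probes of a set, none of which could be repeated from these values, and neither the genome build nor the program version is given in the sources used here. Symbols are those of the platform annotation and some may be outdated. 1 symbol was carried by 17709 probe sets, several by 0 and none by 3739.

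With limma (version 3.58.1, under R version 4.3.3), the 3 group means were estimated from all 9 arrays with 6 residual degrees of freedom and Benjamini-Hochberg adjustment over 21448 probe sets, in 3 comparisons. Intervals are 95% intervals from this fit. Their width depends on 3 arrays a group and on the spread of each gene, estimated from all 9 arrays. To that estimate limma added 4.83 prior degrees of freedom drawn from all probe sets. The fit was tested on simulated data. The members, the gene lists and the tests were chosen with earlier results of these data known. Named are all members, up to 6 called genes of each list, F2R, genes of similar profile by a fixed measure and, chosen after their values were seen, uncalled list genes given as examples. Lists held 82 pathway genes, 4 of which were not analysed here, so that 2 genes the rule would name are missing. Promoter sequences are from RefSeq, and PLAT and THBD have none here. The motifs are not from RefSeq but are fixed strings of letters chosen for the search. Alternatives were other samples in the fit, thresholds, filters, variance priors, normalizations, array weights, an independent samples t-test, a block for the replicate number and leaving out each array. Figures were drawn with matplotlib version 3.10.9.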

Additional observations from a re-analysis of the deposited data

How the results depend on the processing

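F3 in both CID comparisons and TFPI2 against DM kept their direction under every alternative run. All 3 calls were lost in the independent samples t-test, in which 0 of 9 members were called after Benjamini-Hochberg adjustment in each comparison, F3 lost its calls at the stricter fold threshold below, where TFPI2 kept its own, and the other alternatives kept all 3. That test called 2 probe sets for CID against DM, 21 for CID against DMSO and 0 for DMSO against DM after adjustment, and 570, 753 and 131 at the unadjusted threshold with the fold limit, of which 3, 3 and 1 were members. A fold threshold of 1.5 on the log2 scale gave 40, 53 and 0 probe sets and 1, 0 and 0 members. An adjusted p under 0.1 gave 456 probe sets against DM and 3 members against DMSO, and a trended and robust variance prior gave 476 probe sets against DM, 5 for DMSO against DM and 3 members against DMSO. Without the dimmest probe sets, and after median centring, 2 members were called against DMSO. The 1 call of DMSO against DM was lost (0 probe sets) when only the groups compared were fitted.

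Leaving out 1 array gave 137 to 224 probe sets for CID against DM, 264 to 405 for CID against DMSO and 0 to 1 for DMSO against DM, with 2, 1 and 0 members each time. Array numbers are shared between groups, and deviations of same-numbered arrays correlated at -0.0519 to 0.0684. Of 9 such pairs 4 were closest to their own number, among them all 3 of CID against DMSO (0.0684, 0.065 and 0.0679). Whether the numbers pair samples cannot be told from correlations this small. With the replicate block 275, 507 and 0 probe sets and 2, 1 and 0 members were called.

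Members near 0 changed sign. TFPI had 0.0535 against DM after quantile normalization, 0.0165 after cyclic loess, 0.0183 after median centring and 0.0054 with array weights, and for DMSO against DM TFPI had 0.0050 and PROCR 0.025 after median centring. Without 1 array, TFPI ranged from -0.0917 to 0.0683 against DM, from -0.045 to 0.14 against DMSO and from -0.14 to 0.0083 for DMSO against DM, THBD from -0.075 to 0.075 and PLAUR from -0.13 to 0.27 against DMSO, and for DMSO against DM PROCR from -0.16 to 0.15, PLAT from -0.10 to 0.16 and PLAU from -0.07 to 0.23. The cause of these shifts was not tested. Each of the 9 members has 1 probe set, so that no other probe set could be tried.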
